A study of Mus musculus with 10 samples.

Results

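The cytosolic ribosomal protein genes were taken by symbol from the deposited expression table. A gene was a member if its symbol was Rpl or Rps with a number, with or without the endings a, x, l or al, or if it was Rplp0, Rplp1, Rplp2 or Rpsa. This rule found 82 genes among 24453 symbols, 50 of the large 60S subunit (Rpl and Rplp) and 32 of the small 40S subunit (Rps). No measured value entered the choice. The rule leaves out Rps3a1, Fau and Gnb2l1, which also code for ribosomal proteins, and the rows whose symbols mark a pseudogene or retrogene. It keeps Rps4l by its symbol, although the GENCODE M21 annotation lists Rps4l as a transcribed processed pseudogene.

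The RNA came from microglia, which are macrophages that reside in the brain, purified with magnetic beads from brains of untreated C57bl6 mice. The 10 libraries formed 4 groups. Mice aged 15 months gave 3 libraries and mice aged 10 weeks gave 3, called aged and young here. At 3 months of age, 2 libraries carry the label Rab7 deltaMG and 2 the label Rab7 Control. Rab7 is a small GTPase that acts in traffic to lysosomes, and the series calls the deltaMG animals null mutants. The labels used here do not say which Cre driver or allele removed Rab7, nor whether a library is 1 animal or a pool. Every direction below rests on these labels, because Rab7 itself does not check them. It was 64.2 and 67.5 RPM under the label control, and under the label deltaMG it was not lower, at 72.2 and 79.4 RPM. The unit of the deposited values is not named in the labels, and they were read as RPM, reads scaled to a library total, from the steps between low values, so the read depths below rest on that reading. With a single value per gene, a partial deletion could go unseen.

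Each cytosolic ribosome carries a set of small, basic proteins on a scaffold of ribosomal RNA, and most of these proteins are present in a single copy per particle. Their mRNAs begin with a C followed by a tract of pyrimidines, the 5′ terminal oligopyrimidine (TOP) motif, through which mTORC1 and the RNA-binding protein Larp1 set their translation as a group. In most cells they rank among the more abundant mRNAs, and in mammals each functional gene is accompanied by many processed pseudogenes.

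The start of these genes is shown first because the motif is the feature that the family shares in sequence and that the choice of members did not use. The RefSeq promoter table (GRCm38.p6) had a row for 61 of the 82 members. In the 70 bases from 20 before to 49 after the annotated start, a run of at least 8 C or T was present in 48 of 61 members (78.7%) and in 28.4% of 26964 other genes. Read on the other strand of the same windows, such a run was present in 11.5% of members and in 31.7% of the other genes. The letters CTTTC, which can lie inside such a run, were present in 52.5% of members and 10.3% of the other genes, against 9.8% and 10.2% on the other strand. The windows below belong to members described in the results, with the pyrimidine run in capitals. A match of letters describes the window only. Rpl29, which is also described, had no row.
Rps15 (chr10:80292446-80292475, plus strand): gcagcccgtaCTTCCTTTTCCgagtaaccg
Rpl36al (chr12:69184020-69184049, minus strand): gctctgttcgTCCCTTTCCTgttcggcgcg
Rps6 (chr4:86857349-86857378, minus strand): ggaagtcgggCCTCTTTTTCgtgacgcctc
Rps9 (chr7:3704024-3704053, plus strand): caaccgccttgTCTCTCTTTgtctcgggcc
Rps15a (chr7:118116143-118116172, minus strand): gcccggcccaCTCTCTTTCTgccatcttcc
Rpl4 (chr9:64173405-64173434, plus strand): gagcgtggCCTTCTCCTCTCCCCgtcatgg
Rpl41 (chr10:128549119-128549148, minus strand): cgccattaaatagcagtaggCCTCCCTCTC
Counted from the RefSeq start, the run in Rps6 starts next to it, that in Rps15 25 bases and that in Rpl41 40 bases inside the transcript. The runs in Rps9 and Rps15a start before it, at -6 and -15. Gene coordinates printed further on are those of GENCODE M21, whose starts for Rps6 and Rps15 differ. The distances therefore hold for the RefSeq start only. Members with a run included Rps15 and Rpl36al, which rose in aged libraries. They also included Rps15a, which was lower in mean there, with overlapping groups and no call (limma adjusted p = 0.554).

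The depth behind the scaling was 6098270 to 9907450 reads per library, so that 1 RPM was worth 6.098 to 9.907 reads. The listed genes held 18.72% to 23.55% of that depth. The microglial markers P2ry12 (600 to 1460 RPM), Csf1r (799 to 1410 RPM) and Tmem119 (213 to 429 RPM) were high in all libraries, while the endothelial marker Cldn5 was at 0 in all. Neutrophil markers were present too, with a summed level of 450.8 to 4326 RPM. Young libraries had 1715 to 1771 RPM of Xist and a sum of Y-linked genes of at most 0.29 RPM. Aged libraries had at most 0.94 RPM of Xist and 35.68 to 48.72 RPM of the Y-linked sum, so age and sex cannot be told apart in that comparison. The 4 libraries of the Rab7 experiment had both (Xist 924 to 1562 RPM, Y-linked sum 9.11 to 25.81 RPM), so each held RNA of both sexes. The Y-linked sum was 19.32 and 25.81 RPM in labelled control and 20.31 and 9.11 RPM in labelled deltaMG libraries, so the mix was not the same in all of them. Whether replicates were separate animals is not in the labels, so p-values measure only the spread among these libraries, which may be technical in part.

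Ribosomal protein mRNAs were a small part of these libraries. All 82 together summed to 324.8 to 608.4 RPM, which is 1983 to 4523 reads and 0.154% to 0.262% of the listed signal. A single member, Rpl4, exceeded 50 RPM in any library, and the number of members with at least 10 RPM was 10 to 22 per library. The 10 members with the highest mean held 42.2% to 50.3% of the sum. The median over all 82 members was 3.59 RPM per kilobase of transcript, against 0.264 for the other protein-coding genes of the table. Among genes that passed the filter described below, the median was 13.7 RPM per kilobase for members and 5.92 for the others. That filter is on RPM, and the median transcript length was 826 bases for these members and 3484 for the others. A short gene needs more RPM per kilobase to pass, so the filter and the lengths alone can part these medians. They do not show that the members were more abundant. Rn45s, the ribosomal RNA precursor, took 7.64% to 11.81% of the listed signal.

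Per kilobase, the highest level was that of Rpl41, which codes for a very short basic peptide of the 60S subunit, at 52.6 RPM per kilobase as the mean of 10 libraries. It was followed by Rps9, a protein of the 40S body, at 27.6, by Rpl36al at 25.6, by Rpl4, a protein that lines the exit tunnel, at 25.4 and by Rpl29 at 21.6 RPM per kilobase. Rpl36al, Rpl4, Rpl29 and Rps15 (21.6 RPM per kilobase) lie close together, and their order depends on the transcript chosen for the length. At the low end Rpl39l was listed at 0 in every library, and the mean per kilobase was 0.012 for Rpl3l, 0.024 for Rpl10l, 0.269 for Rpl34 and 0.535 for Rps2. Rpl3l and Rpl10l are paralogues known from muscle and testis. Rpl34 and Rps2 code for core proteins of their subunits, and Rpl34 amounted to a whole read or more in young library 3 only (1.29 RPM, 9 reads). The pseudogene row Rpl34-ps1 went the other way, with 0.00794 RPM in young library 3 and 0.446 to 1.64 RPM in the other libraries. How reads were divided between these rows was not tested. The Rpl34 row alone therefore does not show in which libraries its mRNA was present.

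**Figure D1:**
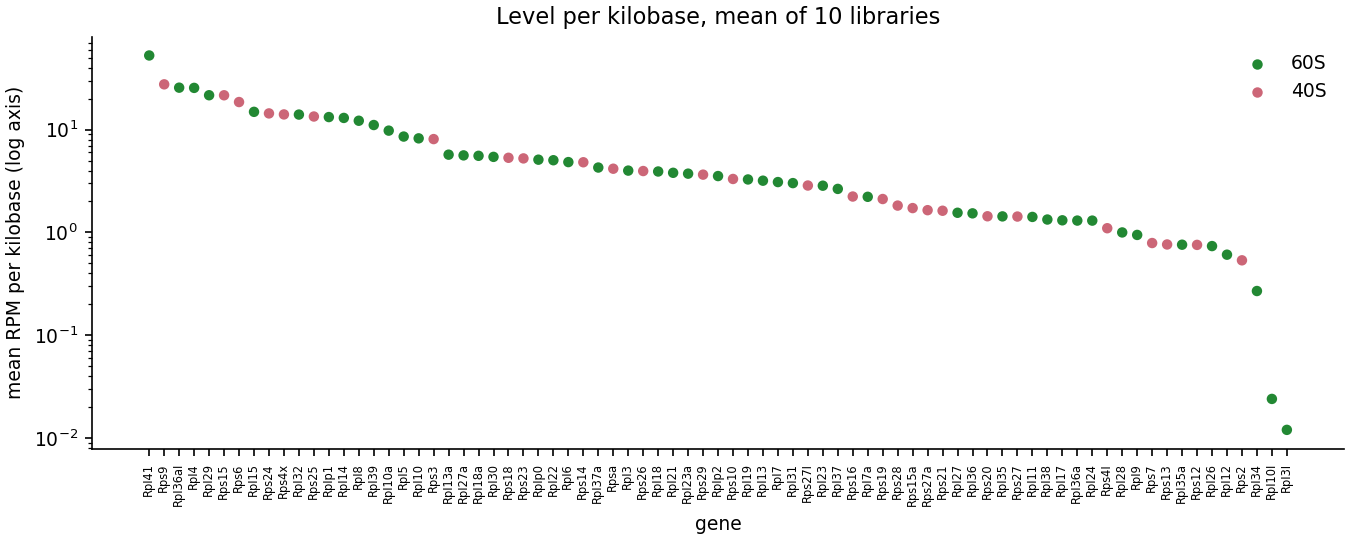
Mean level of each member over 10 libraries, in RPM per kilobase of transcript on a log axis, ordered from highest to lowest, with 60S genes in green and 40S genes in pink; Rpl39l, at 0, cannot be drawn, and 77 members are shown. Rpl41 stands at 52.6 RPM per kilobase, and Rpl3l, the lowest member drawn, at 0.012.

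Much of the members' sequence is shared with other loci. For each member, the share of 50-base windows of its transcript that also occur in transcripts of another GENCODE M21 gene was computed. The median was 52.2% for the 82 members and 0.0% for 19845 other protein-coding genes of the table. A share of 50 percent or more was found in 45 of 82 members (54.9%) and in 5.4% of the other genes. The median was 35.7% for the 22 members that passed the filter described below and 57.0% for the 60 that did not. Across the 82 members the share and the level per kilobase had a Spearman rho of -0.11, and the members share libraries and lengths. How the authors' counting treated reads that match several loci is not given in the sources used here. Of member values up to 500 reads, 91.0% to 94.8% per library lay within 0.05 of a whole read, and the others did not. In young library 2, where 1 read was worth 0.164 RPM, Rps27 was at 0.305 RPM and its retrogene row Rps27rt at 0.351 RPM. Neither value is a whole number of reads. How reads were divided between such rows was not tested, so levels of members with close copies are uncertain.

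Several pseudogene or retrogene rows were listed above the gene they derive from. Rplp2-ps1 was above Rplp2, an acidic protein of the stalk, in 10 of 10 libraries, by 8.08 to 22.3 times. Rpl31-ps12 was 6.12 to 13.4 times Rpl31, Rpl37rt was 5.46 to 17.0 times Rpl37 and Rpl14-ps1 was 1.26 to 2.66 times Rpl14, each in 10 of 10 libraries. Rps15a-ps6 exceeded Rps15a in 6 of 10 libraries, with a ratio of 0.585 to 1.65. For Rplp2, Rpl31, Rpl37 and Rpl14 the listed row held less signal than its copy in all libraries.

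Most paralogue pairs differed widely in level. Rpl36al ranged from 12.6 to 30.6 RPM (median 18.1) and its X-linked paralogue Rpl36a from 0.145 to 1.1 RPM (median 0.661). Rps27l had a median of 1.28 RPM and Rps27 of 0.462 RPM. Rps4x had a median of 12.3 RPM and Rps4l, annotated as a pseudogene, of 0.854 RPM. Rpl3 (median 5.82 RPM), Rpl10 (5.93 RPM) and Rpl39 (6.6 RPM) stood above Rpl3l (at most 0.164 RPM), Rpl10l (at most 0.144 RPM) and Rpl39l (0 in all libraries). Rpl22 had a median of 9.98 RPM against 0.646 RPM for Rpl22l1. Rpl7 (3.26 RPM) and Rpl7l1 (3.47 RPM), a nucleolar relative, had overlapping ranges of 1.1 to 7.28 and 2.41 to 5.79 RPM.

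The sum over the members differed between groups in both comparisons. In young libraries it was 324.8, 325.2 and 386.9 RPM, and in aged libraries 519.0, 390.8 and 574.3 RPM. The ranges did not overlap, but the lowest aged library, aged library 2, lay close to the highest young one. The means were 345.6 RPM ± 35.7 (SD, n = 3) and 494.7 RPM ± 94.1 (SD, n = 3), a ratio of 1.43. In the Rab7 experiment the sum was 608.4 and 492.2 RPM for labelled control and 349.7 and 397.4 RPM for labelled deltaMG. These groups did not overlap either, and their means of 550.3 RPM ± 82.2 (SD, n = 2) and 373.5 RPM ± 33.7 (SD, n = 2) gave a ratio of control to deltaMG of 1.47. No test was made on these sums. In bulk RNA, fewer cells of a type and less RNA per cell cannot be told apart.

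The subunits followed the same order. The 60S genes summed to 217.2, 211.8 and 240.7 RPM in young, 329.8, 255.7 and 369.7 RPM in aged, 376.1 and 310.1 RPM in labelled control and 228.2 and 258.7 RPM in labelled deltaMG libraries. The 40S genes summed to 107.6, 113.5 and 146.2 RPM, 189.2, 135.1 and 204.7 RPM, 232.3 and 182.1 RPM, and 121.4 and 138.6 RPM in the same order. For the 40S genes aged library 2 lay below young library 3, so the ageing groups overlapped, while for the 60S genes they did not. The ratio of the 60S to the 40S sum was 1.619 to 2.018 over all libraries, and the young range of 1.646 to 2.018 held the aged range of 1.743 to 1.892. In the Rab7 experiment the ratio was 1.619 and 1.703 in labelled control and 1.879 and 1.867 in labelled deltaMG libraries.

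**Figure D2:**
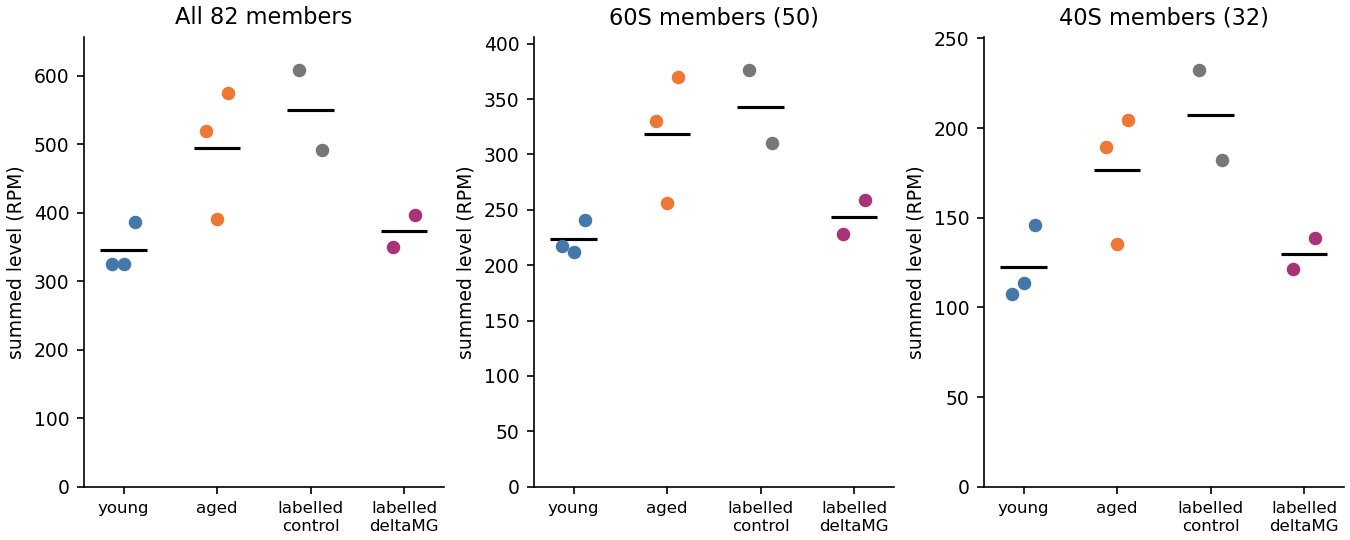
Summed level in RPM of all 82 members, of the 50 genes of the 60S subunit and of the 32 genes of the 40S subunit; each point is a library, the bar is the group mean and the axes start at 0. The aged and labelled control groups lie above the young and labelled deltaMG groups, with aged library 2 (390.8 RPM for all members) nearest to the young libraries.

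The ageing experiment asked what differs in microglial RNA at the higher age. The mean RPM was higher in aged libraries for 72 of 82 members, 46 of the 60S and 26 of the 40S subunit, and lower for 9. Among the 18022 genes with any signal, 48.4% had a higher and 46.5% a lower mean in aged libraries. For 22 members every aged library exceeded every young one (26.8% of the members, against 6.64% of the 18022 genes), among them Rpl13a, Rpl41, Rps9 and Rps19. Rps27a, which codes for a fusion of ubiquitin and a 40S protein, was the only member with every aged library below every young one, where 7.29% of the genes were so. The count of higher means stayed at 66 to 73 when any library of the 2 groups was left out, and the count of lower means was 15 without young library 1.

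To test single genes, those that reached 10 RPM in 2 or more of the 10 libraries were fitted with limma on log2(RPM + 1), a scale that understates the change of low genes. This left 4151 genes, 22 of them members. Of the other 60 members, 56 were below 10 RPM in all libraries and 4 reached it in 1 library. Of the 22, Rpl27a passed through the libraries labelled control alone and Rpl39 through the aged libraries alone, so the counts over these 22 describe them and are not evidence about the family.

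Of the 22 fitted members, 2 rose in aged libraries at an adjusted p under 0.05 and 0 fell, beside 3.16% of the fitted genes that rose and 2.99% that fell. At an unadjusted p under 0.05 limma had 11 of the 22, beside 21.5% of all fitted genes. The fold change was positive for 21 members, beside 42.8% of all fitted genes, and the median log2 fold change was 0.46, against -0.05 over all 4151 genes. The number that rose was 0 without young library 1 or aged library 3, 1 without young library 2, young library 3 or aged library 1, and 7 without aged library 2. By subunit, 1 of 13 fitted 60S genes and 1 of 9 fitted 40S genes rose. The split over all genes was 131 higher and 124 lower, and it moved to 217 and 128 with median-of-ratios scaling and to 223 and 106 with equal library totals.

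Rps15 (chromosome 10, 80292453 to 80294114, plus strand, 4 exons, GRCm38), a protein of the head of the 40S subunit, had 4.89, 7.05 and 6.05 RPM in young and 11.4, 9.89 and 19.8 RPM in aged libraries. All aged libraries were above all young ones, and aged library 3 stood well above the rest. Its log2 fold change of 1.03 (SE 0.24), a rise of 2.04-fold, had a limma adjusted p of 0.0221. The values rested on 31 to 156 reads per library. The adjusted p was 0.00777 to 0.106 over 20 alternatives, and it was above 0.05 without young library 1 (0.106), young library 3 (0.0527) or aged library 3 (0.0804), with no filter (0.078), with the replicate block (0.066) and with its own 2 groups only (0.0706).

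Rpl36al (chromosome 12, 69182731 to 69184083, minus strand, 2 exons), a 60S protein near the exit site for transfer RNA, had 13.9, 12.6 and 15.0 RPM in young and 21.9, 20.4 and 30.6 RPM in aged libraries. The groups did not overlap, and aged library 3 was again the highest. Its log2 fold change of 0.75 (SE 0.19), a rise of 1.69-fold, had a limma adjusted p of 0.031. That p was above 0.05 without young library 1 (0.1), 2 (0.0937) or 3 (0.0538) and without aged library 1 (0.0564) or 3 (0.0976), with no filter (0.103), with the replicate block (0.0741) and with its own 2 groups only (0.0573), within a range of 0.00743 to 0.103 over 20 alternatives.

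Rpl15, an RNA-binding protein of the 60S core, had 8.35, 7.05 and 9.36 RPM in young and 12.5, 12.1 and 15.2 RPM in aged libraries, with a log2 fold change of 0.63 and an adjusted p of 0.0513 by limma. Its groups did not overlap, and it lay just outside the threshold that Rpl36al passed.

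Rpl39, a small protein of the exit tunnel, had the second largest log2 fold change, 0.86, with an adjusted p of 0.165 by limma. Its young libraries were at 2.21, 4.76 and 7.34 RPM and its aged ones at 11.1, 5.65 and 10.3 RPM, so the groups overlapped. Rps24, mutated in some cases of Diamond-Blackfan anaemia, had 3.63, 3.44 and 10.4 RPM in young and 13.003, 7.67 and 8.64 RPM in aged libraries. Young library 3 was apart from the rest of its group, and the log2 fold change of 0.78 had a limma adjusted p of 0.196, or 0.0375 without that library, within a range of 0.0375 to 0.512 over 20 alternatives.

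At the other end, Rps15a, a 40S protein that had 10.2, 10.3 and 7.63 RPM in young and 8.15, 6.66 and 8.25 RPM in aged libraries, had a log2 fold change of -0.25 (limma adjusted p = 0.554). The groups overlapped through young library 3. Its copies were higher in mean in aged libraries. Rps15a-ps6 had means of 7.2 RPM in young and 11.4 RPM in aged libraries. Rps15a-ps4 had 2.52, 2.79 and 2.73 RPM in young and 5.33, 4.44 and 7.11 RPM in aged libraries. Whether reads were exchanged between Rps15a and these copies was not tested. Rpl5, which carries the 5S ribosomal RNA and can bind the p53 regulator Mdm2, had 15.3, 12.8 and 19.7 RPM and 18.2, 12.7 and 18.3 RPM, and Rpl27a had 5.52, 5.25 and 4.46 RPM and 6.74, 5.85 and 5.33 RPM. Their log2 fold changes were 0.04 (limma adjusted p = 0.944, interval -0.43 to 0.51) and 0.20 (adjusted p = 0.703, interval -0.32 to 0.72). These intervals hold both no change and the median of the fitted members.

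Among aged libraries the members moved together. In aged library 2, 1 of 22 fitted members was above the mean of its group and the median deviation was -0.29 on the log2 scale, while in aged library 3 it was 20 of 22 and 0.24. The median deviation over all fitted genes in these libraries was -0.08 and 0.11. Neutrophil markers summed to 1659, 941.2 and 4326 RPM in aged libraries 1 to 3 and to 980.1, 1409 and 551.3 RPM in young ones, and 12 of 12 fitted markers were positive, with 1 called. The monocyte markers summed to 222.5, 159.8 and 502.1 RPM against 86.7, 108.9 and 58.4 RPM, with 5 of 7 fitted markers called higher. Aged library 3 was highest and aged library 2 lowest in the aged group for both lists, as for the ribosomal protein sum. Of the 12 microglial markers, 6 were called lower. The part of these cells in the result was not tested.

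**Figure D3:**
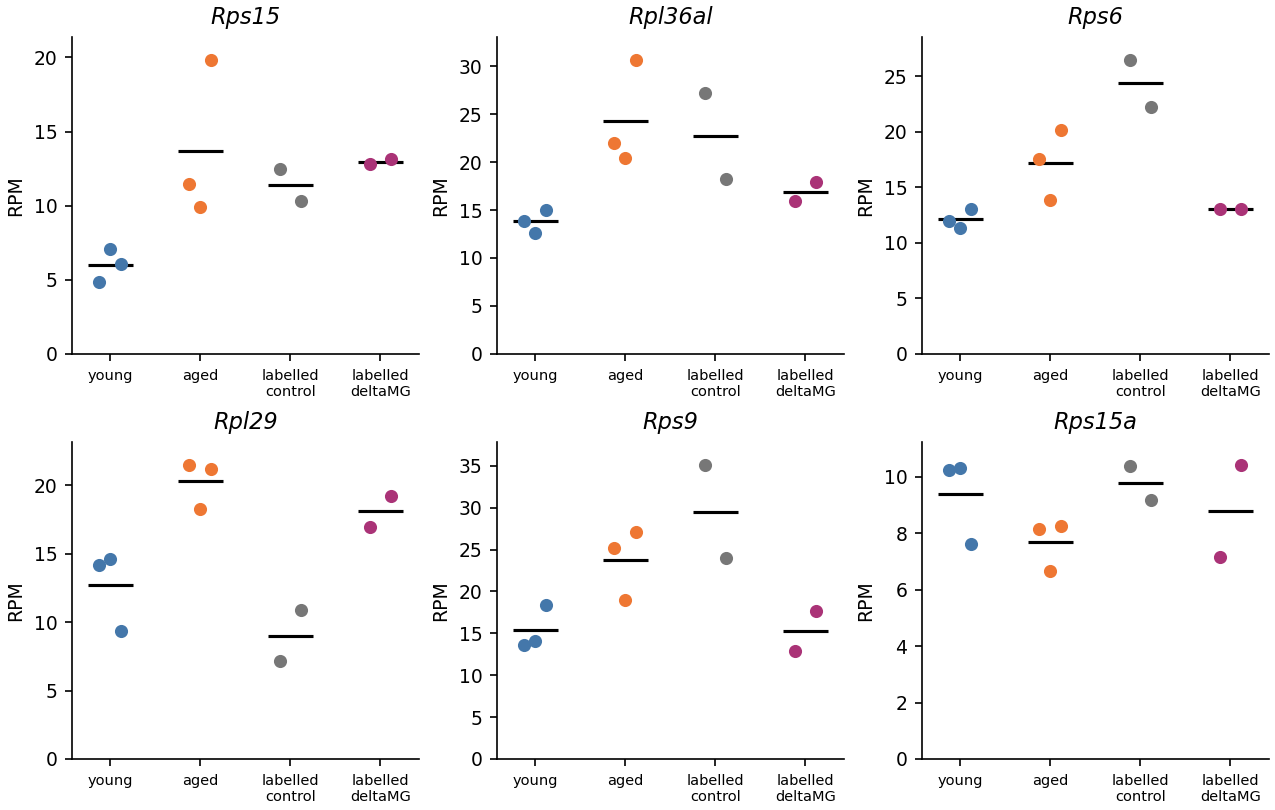
RPM of 6 named members in each library (points) with the group mean (bar), axes starting at 0. Rps15 and Rpl36al are higher in all 3 aged than in all 3 young libraries, Rps6 and Rps9 are lower in both libraries labelled deltaMG, Rpl29 is higher in them, and the groups of Rps15a overlap.

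The Rab7 experiment compared microglia labelled as Rab7 mutants with their controls. The mean RPM was lower in the libraries labelled deltaMG for 67 of 82 members, 41 of the 60S and 26 of the 40S subunit, and higher for 12. Of the 18022 genes with any signal, 42.7% were lower and 45.3% higher. For 44 members (53.7%) both libraries labelled deltaMG lay below both labelled control, against 16.2% of the 18022 genes. For 7 members both lay above, against 17.1%, namely Rpl29, Rpl34, Rpl36, Rpl38, Rps15, Rps21 and Rps27. The values of Rpl34 in these libraries were a small fraction of a read, and their order carries no information. For Rps27 the highest control and lowest deltaMG values were 0.459 and 0.47 RPM, less than 1 read apart. Some of the 44 were also less than 1 read apart, such as Rpl17 (lowest control 1.04 RPM, highest deltaMG 1.013 RPM) and Rpl11 (1.41 and 1.314 RPM). The count of lower means was 60 to 67 when any of the 4 libraries was left out, and the count of higher means was 19 without labelled control library 1.

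Of the 22 fitted members, 1 fell and 1 rose in the libraries labelled deltaMG, beside 2.58% of the fitted genes that fell and 1.2% that rose. At an unadjusted p under 0.05 limma had 8 of the 22, beside 18.8% of all fitted genes. The fold change was negative for 20 members, beside 52% of all fitted genes, and the median log2 fold change was -0.53 against -0.02 over all fitted genes. Without any of the 4 libraries of this experiment, 0 members were called in either direction, and so it was without young library 1 or aged library 1, which share the estimate of the spread. The number that fell was 5 without aged library 3, 4 without aged library 2 and 2 without young library 3. Over all genes 50 were higher and 107 lower, and 118 and 128 with equal library totals.

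Rps6 (chromosome 4, 86854660 to 86857412, minus strand, 5 exons), the 40S protein that S6 kinase phosphorylates downstream of mTORC1, had 26.5 and 22.3 RPM under the label control and 13.02 RPM in each library labelled deltaMG. The groups were well apart, and both libraries labelled deltaMG were at the level of the young libraries (11.98, 11.3 and 13.1 RPM). Its log2 fold change of -0.85 (SE 0.21), 1.8-fold lower, had a limma adjusted p of 0.0353. Without either control library that p was 0.321 and 0.108, without either deltaMG library 0.182 and 0.131, without young library 1 0.0528 and without aged library 1 0.0523. With no filter it was 0.111 and with the replicate block 0.0941, and over 20 alternatives it ranged from 0.00098 to 0.321.

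Rpl29 (chromosome 9, 106429454 to 106431568, plus strand, 4 exons), a 60S protein also known as a heparin-binding protein at the cell surface, moved the other way. It had 7.13 and 10.9 RPM in labelled control and 17.0 and 19.2 RPM in labelled deltaMG libraries, with no overlap. Its log2 fold change of 0.96 (SE 0.24), a rise of 1.94-fold, had a limma adjusted p of 0.0431. It too was lost without any of these 4 libraries (adjusted p 0.404 and 0.053 without a control library, 0.168 and 0.2 without a deltaMG library). It was also lost without young library 1 (0.0592), young library 2 (0.052) or aged library 1 (0.0621), with no filter (0.16), the replicate block (0.109) and no variance trend (0.0567), and over 20 alternatives the range was 0.00106 to 0.404. Rpl29 was also high in aged libraries, with 21.5, 18.3 and 21.2 RPM against 14.2, 14.6 and 9.36 RPM in young ones, where its log2 fold change of 0.66 had a limma adjusted p of 0.0648.

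The largest negative fold changes belonged to 40S genes that missed the threshold. Rps25, which takes part in initiation at internal ribosome entry sites, had 11.9 and 11.7 RPM in labelled control and 5.49 and 5.2 RPM in labelled deltaMG libraries (log2 fold change -1.01, limma adjusted p = 0.0891). The X-linked Rps4x had 26.9 and 15.1 RPM against 9.92 and 9.26 RPM (-1.001, adjusted p = 0.0783 by limma), and its 2 control libraries were far apart. Rps9 had 35.1 and 23.97 RPM against 12.9 and 17.6 RPM (-0.90, limma adjusted p = 0.0519), and it passed under median-of-ratios scaling (0.0269), within a range of 0.000294 to 0.468 over 20 alternatives. In each of the 3 genes both libraries labelled deltaMG were below both labelled control.

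Rps15 and Rpl8 were at the upper end of the list. Rps15 had 12.5 and 10.3 RPM in labelled control and 12.8 and 13.2 RPM in labelled deltaMG libraries, with a log2 fold change of 0.18 (limma adjusted p = 0.815, interval -0.44 to 0.80). Rpl8, a protein next to the peptidyl transferase centre, had 12.2 and 9.87 RPM against 8.6 and 12.7 RPM, with -0.06 (limma adjusted p = 0.943, interval -0.62 to 0.50). The groups of Rpl8 overlapped, and those of Rps15 were apart by less than 1 RPM.

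Of the stalk genes, Rplp0, which anchors the stalk on the 60S subunit, had 12.3 and 6.91 RPM in labelled control and 4.78 and 5.35 RPM in labelled deltaMG libraries. Rplp1, the acidic partner of Rplp2, had 8.02 and 9.17 RPM against 4.54 and 4.92 RPM, and Rplp2 had 1.64 and 1.69 RPM against 1.2 and 1.59 RPM. Rpsa, known also as a laminin receptor, had 7.28 and 7.05 RPM against 5.02 and 6.94 RPM. All 4 were below the filter and were not fitted. In each of them both libraries labelled deltaMG lay below both labelled control, by 0.1 RPM or less in Rplp2. In Rpsa the groups were apart by less than the worth of 1 read.

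Neutrophil markers were higher in the libraries labelled deltaMG as well, with sums of 1772 and 1168 RPM against 686.8 and 450.8 RPM, and 12 of 12 fitted markers positive with 1 called. Monocyte markers summed to 167.3 and 122.2 RPM against 70.6 and 54.6 RPM, with 7 of 7 positive and 0 called. By group means, the ribosomal protein sum was lower in this comparison in the group with more of these markers, and in ageing it was higher in the group with more of them. Single libraries did not keep that order in ageing, since young library 3 had the lowest neutrophil and monocyte sums and the highest ribosomal protein sum of its group, and the neutrophil sum of young library 2 exceeded that of aged library 2. The microglial markers summed to 5513 and 5086 RPM in labelled control and to 4659 and 5992 RPM in labelled deltaMG libraries, which overlap. Of the 12 fitted markers, 3 were positive and 9 negative, with 1 called, Cx3cr1 (log2 fold change 1.415, limma adjusted p = 0.000158). It had 398 and 437 RPM in labelled control, 965 and 1290 RPM in labelled deltaMG and 1070 to 1170 RPM in young libraries. What this gene says about the labels was not tested. The part of neutrophils, monocytes and microglia in the result was not tested.

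**Figure D4:**
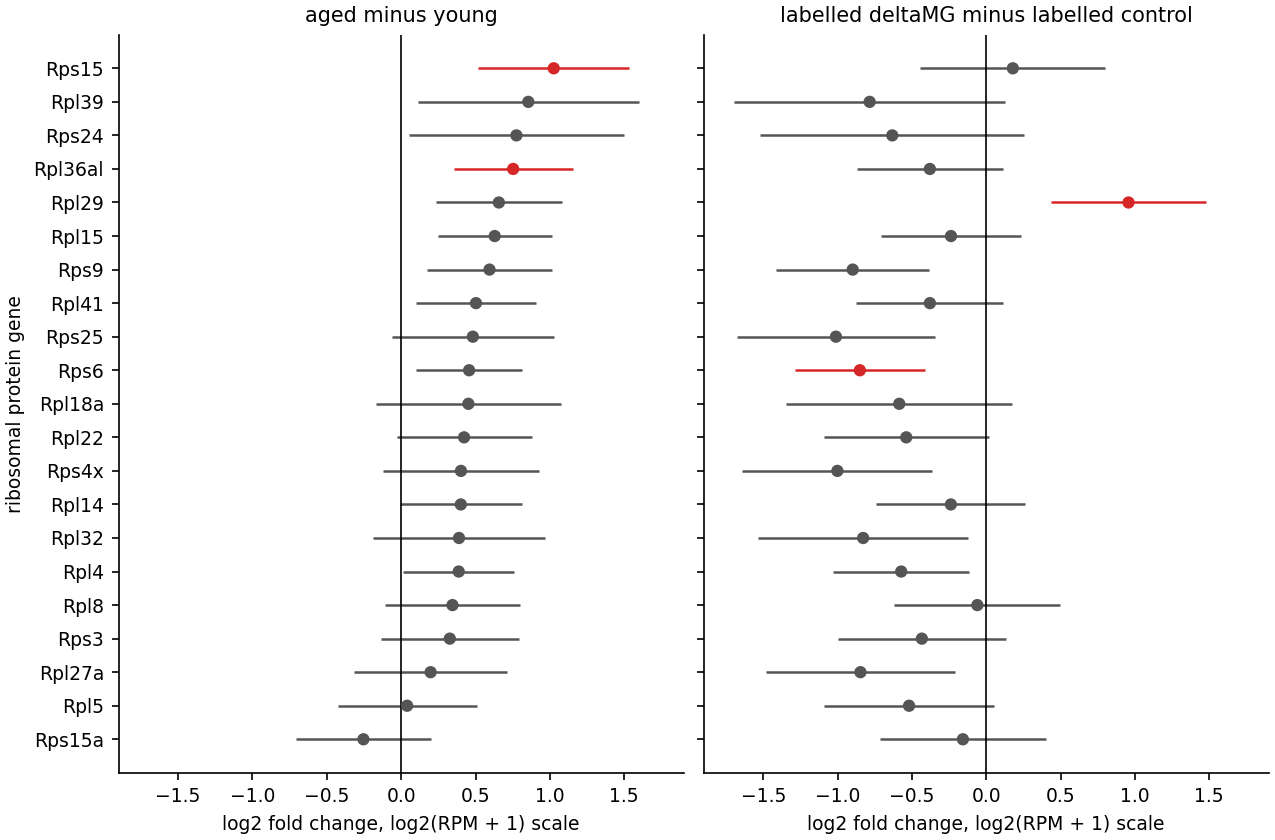
Log2 fold change of 21 fitted members on the log2(RPM + 1) scale, with 95% confidence intervals from limma, for aged minus young (left) and labelled deltaMG minus labelled control (right); red marks a limma adjusted p under 0.05. On the left 20 of 21 points lie above 0, on the right 19 of 21 lie below it, and Rpl29 lies above 0 in both.

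The comparisons share no library, so their effects could be set against each other in the same fit. The ageing effect minus the labelled deltaMG effect was called positive for 5 of 22 members and negative for 0, beside 2.67% and 2.12% of all fitted genes. At an unadjusted p under 0.05 limma had 17 of 22, beside 18.3% of all fitted genes. The median difference was 1.00 on the log2 scale, against -0.02 over all fitted genes. Among them were Rps6 (1.31, limma adjusted p = 0.00913), Rps9 (1.49, 0.0111), Rpl36al (1.13, 0.0407) and Rps25 (1.49, 0.046). Rps4x (1.40, adjusted p = 0.0515 by limma) lay just outside. Of the 22, 2 had a negative difference, Rpl29 (-0.30, interval -0.97 to 0.37) and Rps15a (-0.10, interval -0.81 to 0.62). The number called was 0 to 9 when single libraries were left out, with 0 without labelled control library 1, 1 without labelled deltaMG library 1, 2 without young library 1 or 2, aged library 1 or 3 or labelled deltaMG library 2, and 9 without aged library 2.

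Over all 82 members, 11 had every aged library above every young one and both libraries labelled deltaMG below both labelled control, which 1.28% of the 18022 genes did. Among these were Rpl13a, Rpl15, Rpl23, Rpl36a, Rpl36al, Rpl37, Rplp2, Rps6 and Rps9. They are 50% of the 22 members apart in ageing and 25% of the 44 apart in the Rab7 experiment. Not every member of this group is high, since Rpl37 and Rplp2 stayed below 5 RPM and Rpl36a at or below 1.1 RPM (1 to 7 reads). For Rpl36a the lowest aged and highest young values were 0.606 and 0.576 RPM. Its lowest control and highest deltaMG values were 0.743 and 0.717 RPM. For Rplp2 these were 1.524 and 1.439 RPM, and 1.635 and 1.591 RPM. Such gaps are below the worth of 1 read (0.101 to 0.164 RPM), so the place of Rpl36a and Rplp2 in this group carries little information.

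**Figure D5:**
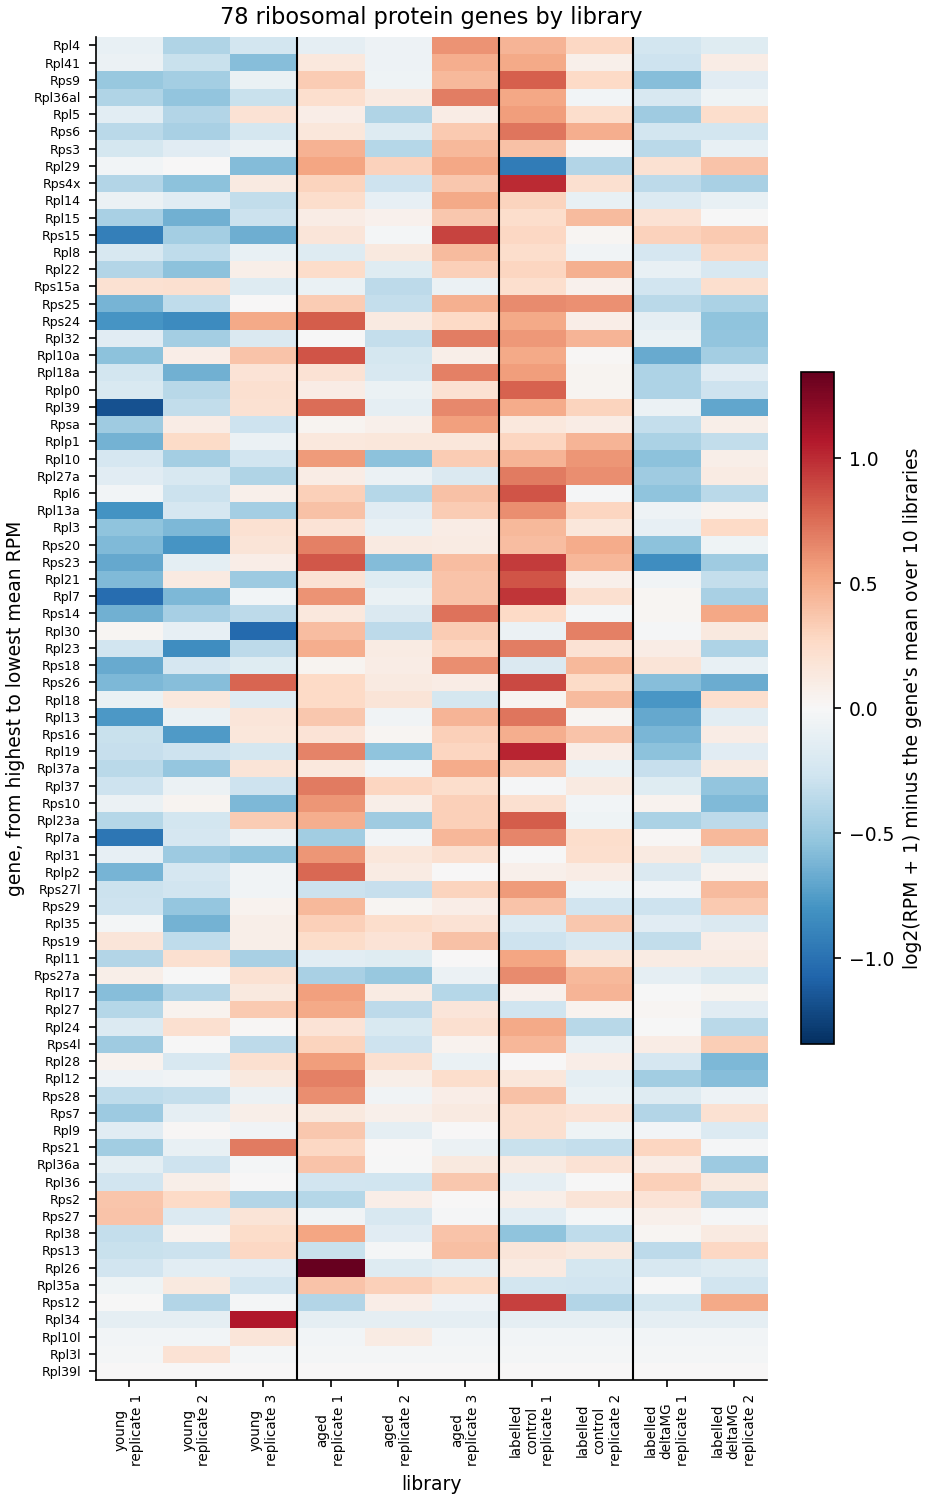
Level of 78 members in each of 10 libraries, as log2(RPM + 1) minus the mean of the gene over the libraries (red above, blue below), with genes from the highest to the lowest mean RPM and lines between the groups. Young and labelled deltaMG columns are mostly blue and aged and labelled control columns mostly red in the upper part, while the lowest rows, such as Rpl34 and Rpl26, are coloured by single libraries.

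The 60 members below the filter ranged from 0 to 12.8 RPM. Of these, 9 had a mean of at least 5 RPM, namely Rpl10a, Rplp0, Rpsa, Rplp1, Rpl10, Rpl6, Rpl13a, Rpl3 and Rps20. Another 20 had a mean from 2 to 5 RPM, among them Rps23, Rpl21, Rpl7, Rps14, Rpl30, Rpl23, Rps18, Rps26, Rpl18, Rpl13, Rps16, Rpl19, Rpl37a, Rpl37, Rps10, Rpl23a and Rpl7a. Means from 1 to 2 RPM were found for 9, namely Rpl31, Rplp2, Rps27l, Rps29, Rpl35, Rps19, Rpl11, Rps27a and Rpl17. The last 22, with means under 1 RPM, were Rpl27, Rpl24, Rps4l, Rpl28, Rpl12, Rps28, Rps7, Rpl9, Rps21, Rpl36a, Rpl36, Rps2, Rps27, Rpl38, Rps13, Rpl26, Rpl35a, Rps12, Rpl34, Rpl10l, Rpl3l and Rpl39l. Rpl26, which binds the p53 mRNA, was at 2.43 RPM (16 reads) in aged library 1 and at most at 0.477 RPM elsewhere. Differences between groups in this last set rest on few reads and were not tested.

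Few other genes of translation were called. Over all fitted genes, 21.5% in ageing and 18.8% in labelled deltaMG had an unadjusted p under 0.05 by limma, which the counts below can be read against. Of 17 fitted initiation factors, 0 were called in either comparison, with medians of -0.03 for ageing and -0.15 for labelled deltaMG, and limma had 3 and 3 at an unadjusted p under 0.05. Of 10 fitted ribosome biogenesis genes and 10 genes of mTOR signalling and TOP translation, 0 were called in either comparison, with medians between -0.10 and 0.04 and, at an unadjusted p under 0.05, 2 and 0 genes for biogenesis and 1 and 1 for mTOR. Of 77 genes of the mitochondrial ribosome 3 were fitted, and 0 were called by limma at either level. Rn45s had mean levels of 20000 RPM in young and 22000 RPM in aged libraries (log2 fold change 0.14, limma adjusted p = 0.77), and 19810 RPM in labelled control and 25850 RPM in labelled deltaMG libraries (0.38, limma adjusted p = 0.466).

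Other TOP mRNAs and copies of the members had medians near those of the fitted members. A list of 14 fitted TOP mRNAs other than the members had a median of 0.42 in ageing (12 positive) and -0.42 in labelled deltaMG (12 negative). At an unadjusted p under 0.05 limma had 8 of the 14 in each comparison, beside 21.5% and 18.8% of all fitted genes. In ageing 1 of the 14 was called, the intermediate filament gene Vim. It had 8.35, 5.41 and 3.6 RPM in young and 15.0, 15.0 and 42.7 RPM in aged libraries (log2 fold change 1.78, limma adjusted p = 0.00948). Its aged libraries were all above the young ones. In the other comparison 1 was called, Eef1a1, the elongation factor that brings transfer RNA to the ribosome, with 264 and 201 RPM in labelled control and 114 and 123 RPM in labelled deltaMG libraries. It fell by 0.96 on the log2 scale with a limma adjusted p of 0.00698. In ageing Eef1a1 had 103, 113 and 134 RPM in young and 168, 132 and 175 RPM in aged libraries, with overlap through aged library 2 (0.43, limma adjusted p = 0.0961). The difference between its effects was 1.39 with a limma adjusted p of 0.00277, and Eef1b2 (1.39, 0.0282) and Tpt1 (1.54, 0.038) were called there too. The elongation list, which holds Eef1a1 as well, had 0 of 7 called in ageing, with 3 at an unadjusted p under 0.05 by limma. In the Rab7 experiment it had 1 of 7 called, with 4 at an unadjusted p under 0.05.

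The 5 fitted pseudogene and retrogene rows had a median log2 fold change of 0.59 in ageing, with 5 of 5 positive, and of -0.47 in the libraries labelled deltaMG, with 5 of 5 negative. For ageing limma had 5 of 5 at an unadjusted p under 0.05, and 1 was called. Rplp2-ps1 rose in ageing, from 14.1, 18.5 and 16.4 RPM to 26.6, 24.4 and 29.6 RPM, 1.62-fold (limma adjusted p = 0.0206), and its groups did not overlap. In the libraries labelled deltaMG 0 of the 5 were called, with 2 at an unadjusted p under 0.05 by limma. Reads of a parent gene that were assigned to its copy would be counted in these rows, and whether this happened was not tested.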

How the data were processed

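The authors deposited a single table of normalised values, which were read as RPM. Per the labels, total RNA was amplified with the Ovation RNA-Seq System V2 and made into Ion Xpress Plus libraries. The submitters' processing notes name GRCm38, mm10 and FastQC. The aligner, the counter, the annotation, the strand setting and the treatment of reads with several matches are not stated in what was used here. A constant of 0.0001 in every cell was subtracted. Low values were multiples of a step, which gave the reads behind the scaling. Of values up to 500 reads, 94.2% to 94.5% lay within 0.05 of a whole read, so whole reads could not be had and count models were left out.

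The fit used limma 3.58.1 (R 4.3.3) on log2(RPM + 1), with a mean-dependent prior variance, 4 groups and 6 residual degrees of freedom. Genes had to reach 10 RPM in 2 or more libraries, and Benjamini-Hochberg adjustment ran over all 4151. A call was an adjusted p under 0.05. The fit was checked on simulated data. Alternatives changed the filter, pseudocount, scaling, variance trend, block and libraries. Counts over all 82 members under other scalings and left-out libraries were added after the data were seen. Symbols of all 82 members were found in GENCODE M21 (GRCm38), and lengths are of the basic principal coding transcript of median length. Tables and figures were made with pandas 2.3.3, numpy 2.4.6 and matplotlib 3.10.9 in Python 3.11.15.

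The members, the lists of other genes and the markers were chosen with earlier results of these data known. Some lists share genes. Members named were those called, the 3 highest and 3 lowest fold changes per comparison, the 5 highest and lowest levels per kilobase, paralogue pairs and, once, members below the filter. Some genes that met the rule are left unreported and undrawn by name, and sums and counts include them. Rpl15, Rps19, Rpl26, the stalk genes and the members called for the difference were named after their values were seen. Other markers summed to at most 8.635 RPM (lymphocyte), 17.62 (erythroid), 7.469 (neuron), 9.66 (endothelial), 55.87 (astrocyte), 27.81 (oligodendrocyte) and 83.94 RPM (border macrophage) in any library.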

Additional observations from a re-analysis of the deposited data

Results flagged for a closer look

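For 4 members named here the ageing effect and the labelled deltaMG effect differed by limma's test of the difference, adjusted over all fitted genes. The ageing effect minus the other effect was 1.31 for Rps6, 1.49 for Rps9, 1.13 for Rpl36al and 1.49 for Rps25, all on the log2 scale. The effects themselves were 0.46 and -0.85 for Rps6, 0.59 and -0.90 for Rps9, 0.75 and -0.38 for Rpl36al and 0.48 and -1.01 for Rps25. Rps6, Rps9 and Rpl36al had groups that did not overlap in either comparison, while the ageing groups of Rps25 overlapped. The experiments differ in the age and sex make-up of their mice as well as in what they compare, and these cannot be told apart.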

How the results depend on the processing

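The summed level kept its direction under the settings run for it. Its log2 ratio was 0.40 to 0.66 for ageing and -0.40 to -0.70 for labelled deltaMG with any library of the 2 groups left out. Calls of single members varied with the setting. For ageing, 2 members were called higher, against 0 with no filter, with the replicate block or with its own 2 groups only, 4 with a pseudocount of 0.1 or no variance trend, and 7 with median-of-ratios scaling or equal totals. Leaving out single libraries gave 0 to 7, with 7 without aged library 2 and 0 without young library 1 or aged library 3. For labelled deltaMG, 1 member was called higher, against 0 with no filter, the replicate block or no variance trend, and 0 to 1 with single libraries left out. There, 1 was called lower, against 0 with no filter or the replicate block, 2 with median-of-ratios, equal totals or quantile normalization, 6 with its own 2 groups only, and 0 to 5 with single libraries left out. For the difference of effects, 5 were called, against 1 with no filter, 3 with a minimum of 1 RPM, 8 with either scaling, 2 with the replicate block and 0 to 9 with single libraries left out. With a pseudocount of 10 the medians were 0.27, -0.29 and 0.56, and the median difference was 0.751 with no filter and ranged from 0.77 to 1.085 with single libraries left out, lowest without aged library 3 and highest without aged library 2. A minimum of 50 RPM in 3 libraries left no member to fit. Signs turned for 3 uncalled values: Rpl5 in ageing ranged up to 0.205 without aged library 2 and was -0.099 without young library 2, -0.039 without aged library 1 and -0.045 without aged library 3. Rps15a in labelled deltaMG ranged to 0.084 without deltaMG library 1. Rpl8 there ranged from -0.318 without deltaMG library 2 to 0.079 without control library 1 and 0.198 without deltaMG library 1. Of 508 values of named members, 449 kept direction and call, 32 lost a call, 21 gained a call and 6 turned sign. Most of the 449 were values without a call that stayed so. All 32 losses fell on the called members. Of 20 alternatives each, the call was kept in 14 for Rps15 and 12 for Rpl36al in ageing. In labelled deltaMG it was kept in 12 for Rps6 and 10 for Rpl29. Without young library 1, 15 members had a lower mean in aged libraries, in place of 9, and without control library 1, 19 had a higher mean in labelled deltaMG, in place of 12. Same-numbered libraries did not deviate together in ageing (r = -0.14, -0.24 and -0.39), so the numbers were not taken to pair the samples. With 2 libraries a group in the other experiment, the deviations within a group mirror each other. There r was 0.12 for same-numbered and -0.12 for crossed libraries, which cannot decide on pairing. Leaving the block out there is an assumption. With the replicate block 46 genes were called higher and 20 lower in ageing, in place of 131 and 124, and 16 and 53 in labelled deltaMG, in place of 50 and 107. Over all genes in ageing, calls were 419 without aged library 2 and 92 to 154 without any other library of that comparison. In labelled deltaMG they were 22 to 86 without any of its libraries and 476 with its own 2 groups only. The cause of these moves was not tested. Members under 1 RPM rest on few reads, which limits any comparison of them.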
